A study of Homo sapiens with 6 samples.

Results

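A set of 44 genes of ribosome biogenesis and RNA polymerase I was followed in SK-N-AS neuroblastoma cells in which MYCN was switched on. They were taken by symbol from a list of nucleolar processing factors and RNA polymerase I machinery, all 44 matched an identifier among the 60651 genes counted, and all 44 passed the filter on low counts. The rule that chose them used gene function and no measured value, although earlier results of these data were known when the list was made.

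SK-N-AS cells are a long-established line from a human neuroblastoma without amplification of MYCN. A stable derivative carries a tetracycline repressor and a MYCN gene under the control of that repressor, and single clones were kept under G418 and blasticidin. After removal of ribosomal RNA, total RNA was sequenced as 3 control libraries, labelled ETOH, and 3 induced libraries, labelled Tet, whose cells had received tetracycline. All 6 libraries carry the time 120 h in their titles, and the treatment is given as 5 days. Both groups hold the same construct and selection, so the groups differ in the tetracycline and in the MYCN it induces, and these cannot be told apart here because tetracycline-treated cells without the MYCN construct were not analysed here. The titles do not say whether the Tet cells also received ethanol, so ethanol may be a further difference.

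A ribosome is built mostly in the nucleolus, where RNA polymerase I transcribes one long precursor of the ribosomal RNAs and assembly factors cut, modify and fold it while ribosomal proteins join. The small subunit is made by the large complex called the processome together with a late set of export and cleavage factors, and the large subunit by a separate set that includes the PeBoW complex. MYC family proteins bind the E-box CACGTG and are known for driving this pathway in growing cells, and MYCN is the member amplified in high-risk neuroblastoma.

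The induced gene separated the groups as labelled. MYCN stood at 30.3, 35.5 and 32.4 CPM (counts scaled to library size by the trimmed mean of M-values) in control replicates 1, 2 and 3. It stood at 211, 221 and 199 CPM in the induced replicates, a log2 fold change of 2.68 (SE 0.08, n = 3 and 3, edgeR adjusted p = 4.15e-05). Its paralog MYC had 48.8, 53.4 and 56.2 CPM in control cells and 37.6, 37.5 and 66.9 CPM in induced cells, so that induced replicate 3 lay above all controls and the other induced libraries below them (log2 fold change -0.16, edgeR adjusted p = 0.757).

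The libraries held 64500589 to 102249336 counted read pairs, and replicates of a group differed by more than sampling noise. Induced replicate 3 stood apart. On the leading principal component (44.8% of the variance) it lay at 69.1 while the other induced libraries lay at 13.1 and 14.4 and the controls between -40.3 and -25.9. Control replicate 1 had low values for GC-rich genes, with a median log2 deviation of -0.29 over the 10% of genes richest in GC against 0.09 and 0.22 in the other controls. Counts of calls are given with and without these libraries, as are members whose value turned on them. Of the adrenergic neuroblastoma markers, HAND2 (349 to 559 CPM) and GATA3 were high in every library and TH was at 1.58 CPM or lower. Of the 14 neuroblastoma markers, edgeR called FN1 alone, lower at a log2 fold change of -0.71 (edgeR adjusted p = 0.0330), while the other detected mesenchymal markers VIM, PRRX1, YAP1 and SNAI2 were above 0 at 0.30, 0.72, 0.15 and 0.20. DESeq2 also called VIM higher and the adrenergic markers ISL1 and DBH lower, at DESeq2 log2 fold changes of -0.54 and -0.84. CD44 was listed at 0 counts in every library, and the part of these marker levels in the results was not tested. Among 6 markers of other cell types, CD3E was at 0 counts throughout and the highest was PTPRC, at 1.19 to 2.07 CPM.

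The promoters of these genes carried the E-box more often than promoters at large. In the RefSeq windows of 300 bases (250 before and 50 after each transcription start, GRCh38.p14), CACGTG, which reads the same on both strands, was present for 17 of the 38 members with an entry (44.7%). The same letters were present for 8.77% of all 27305 genes with a window and for 12.02% of the 11645 protein-coding genes that were tested and had one. Of 19 E-boxes in member windows, 17 began within 50 bases of the transcription start. In all, 10 windows are shown, 5′ to 3′ on the strand of the gene, because they let the members that differed most between the groups be set beside members that did not. The first 2 belong to genes called higher in induced cells, the next 5 to genes with an unadjusted p under 0.05, and the last 3 to genes with a fold change below 0. Capitals mark the E-box.
RRP9: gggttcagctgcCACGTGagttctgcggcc
EBNA1BP2: gcgattcggtggCACGTGga
NOP14: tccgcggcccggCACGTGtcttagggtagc
PES1: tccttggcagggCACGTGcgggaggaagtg
WDR43: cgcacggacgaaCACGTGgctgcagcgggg
IMP4: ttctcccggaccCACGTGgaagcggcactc
PNO1: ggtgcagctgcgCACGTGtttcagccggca
NAT10: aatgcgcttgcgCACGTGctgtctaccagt
NOP2: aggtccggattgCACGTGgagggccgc
FBL: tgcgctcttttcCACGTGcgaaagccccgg

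The RRP9 window is chr3:51941892-51941921 on the minus strand, and its E-box began 5 bases before the transcription start. That of EBNA1BP2 is chr1:43172241-43172260 on the minus strand and lies within the first transcribed bases, with the E-box starting at base 42 after the start. The others are NOP14 at chr4:2963374-2963403 (minus), PES1 at chr22:30591880-30591909 (minus), WDR43 at chr2:28894658-28894687 (plus), IMP4 at chr2:130342900-130342929 (plus) and PNO1 at chr2:68157885-68157914 (plus). NAT10 is at chr11:34105602-34105631 (plus), NOP2 at chr12:6568242-6568268 (minus) and FBL at chr19:39846356-39846385 (minus). EBNA1BP2 and IMP4 each had an additional E-box farther upstream, starting 237 and 203 bases before a transcription start. The remaining members with an E-box were BYSL, GNL3, MRTO4, MYBBP1A, RCL1, UTP4 and UTP20. NOLC1, NOP58, RRP12, BOP1, RRP1B and RRS1 had no entry among the promoters.

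Members with and without an E-box had similar medians. The median log2 fold change was 0.14 over the 17 members with one, 0.13 over the 21 with a window and none, and 0.19 over the 6 without an entry. RRP9 and EBNA1BP2, which rose, held an E-box, and so did FBL, NAT10 and NOP2, whose fold changes were below 0. NPM1, which rose, had none in this window. The E-box share was lower in related lists, with 23 of 87 other ribosome biogenesis genes (26.4%) and 4 of 63 cytosolic ribosomal proteins (6.35%). These shares are descriptions of the sequence, and binding of MYCN was not measured here.

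**Figure D1:**
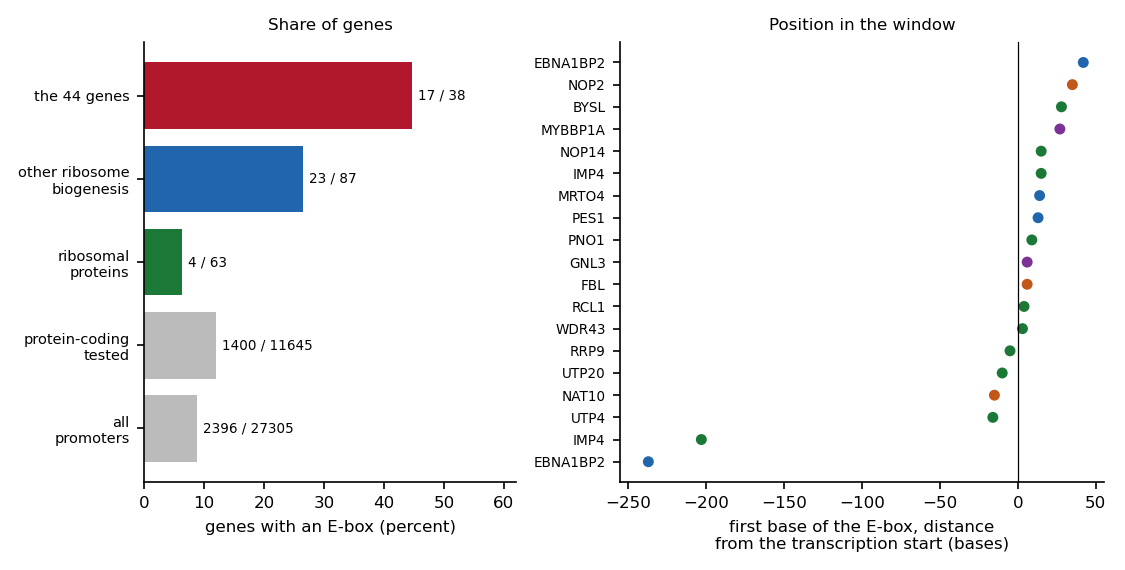
Left, percent of genes with a RefSeq promoter window that hold CACGTG, for the 44 genes, other ribosome biogenesis genes, cytosolic ribosomal proteins, protein-coding genes tested and all promoters, with the number of genes beside each bar. Right, distance in bases of the first base of each E-box from the transcription start, coloured by role, with 17 of 19 within 50 bases of the start.

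Most members stood slightly higher in induced than in control cells, and 3 passed the test. RRP9, NPM1 and EBNA1BP2 rose at an edgeR adjusted p under 0.05 and no member fell, against 1.02% of all 29086 genes tested called higher and 2.38% called lower. Here and below, higher and lower are relative to the scaled library, because the 92 spike-in sequences had 0 counts. RNA per cell was not measured. The paper states that oncogenic MYCN levels amplify transcription broadly, which complicates conventional expression analysis. Of the 44 members, 37 had a fold change above 0 (49.9% of all genes), 6 had an edgeR adjusted p under 0.1 (2.43% of all genes), and 17 had an unadjusted p under 0.05 in the higher direction and 0 in the lower (8.13% and 10.6% of all genes). In 21 members every induced library lay above every control library, and in 0 members below, against 11.5% and 14.7% of all genes. The median log2 fold change was 0.17, with quartiles of 0.09 and 0.26 and a range from -0.18 to 0.78, while the median over all genes was -0.0004.

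Part of this distance from all genes was shared by abundant protein-coding genes. The members' median level in control cells was 27.6 TPM, a level per exon length and library total, above 91.5% of the genes tested. Among 5495 protein-coding genes at 10 TPM or more, 1.69% were called higher, 63.2% had a fold change above 0, 20.5% had induced libraries above all controls, 14.3% had an unadjusted p under 0.05 in the higher direction, and the median log2 fold change was 0.05.

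**Figure D2:**
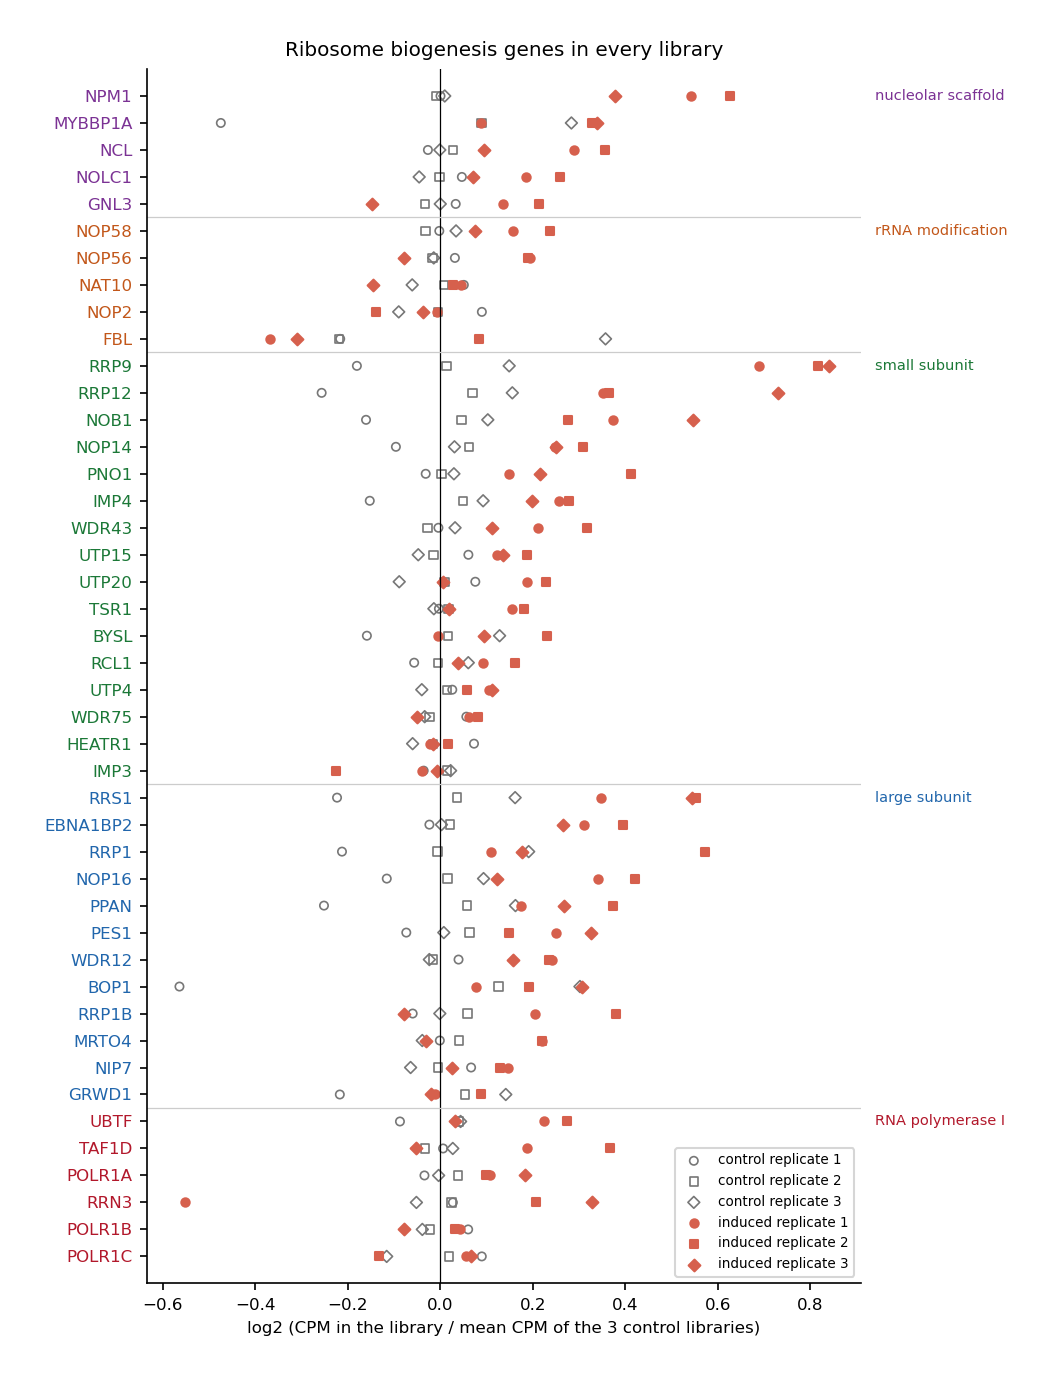
Each row is 1 of the 44 genes, and each symbol 1 library, placed by log2 of its CPM over the mean CPM of the 3 control libraries (open grey symbols, control; filled red symbols, induced; names coloured by role). Most filled symbols lie right of the line at 0, and control replicate 1 lies far left for MYBBP1A and BOP1. RRP9 and NPM1 have the largest log2 fold changes (0.78 and 0.52), with RRP12 close behind (0.49).

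On the CPM scale the shift was present in each induced library but differed in size between them. Measured against the control mean on the log2 CPM scale, the median member stood at 0.16, 0.23 and 0.10 in induced replicates 1, 2 and 3, and at -0.03, 0.02 and 0.01 in the controls. The number of members above the control mean was 37, 41 and 31 of 44, against 14663, 14329 and 14224 of all 29086 genes. Summed over the 44 genes, the level was 6242, 6348 and 6336 CPM in control against 7453, 7796 and 6935 CPM in induced libraries, so the sums did not overlap. NCL and NPM1 weighed heavily in these sums, with means of 1246 and 969 CPM in control and 1481 and 1388 CPM in induced libraries. On the TPM scale, which is not adjusted for library composition, the sums were 1880, 1815 and 1759 in control and 2169, 2487 and 1724 in induced libraries, and induced replicate 3 lay below the controls. On that scale all genes shifted as well, with a median of -0.22 in induced replicate 3 where the members' median was -0.11. The members above the control mean in TPM numbered 41, 43 and 13 of 44 in induced replicates 1, 2 and 3. Over all genes they numbered 16279, 19573 and 7903 of 29048.

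Induced replicate 3 set much of the spread in the induced group. It had the lowest induced level for 23 of the 44 members and the highest for 11. Without it, 12 members were called higher and none lower (3.68% of all genes called higher and 4.44% lower), and the median log2 fold change was 0.21. The additional members called were NCL, NOP56, NOP16, NOLC1, WDR12, RRP1B, WDR43, TAF1D and MRTO4. In the other direction, 0 members were called by edgeR when control replicate 2 (0.063% of all genes called higher) or induced replicate 1 (0.252%) was left out, with medians of 0.16 and 0.17. DESeq2, with 3.11% of all genes called higher and 4.12% lower, called 8 members higher, namely the same 3 and NOP14, WDR12, RRP12, NOB1 and RRS1.

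The 5 members that organise the nucleolus or act as abundant nucleolar proteins all had fold changes above 0, with a median of 0.25. Of all genes 49.9% were above 0, and of abundant protein-coding genes 63.2%. NPM1 (nucleophosmin, an abundant histone and ribosome chaperone of the granular nucleolus; ENSG00000181163.14, chromosome 5, 171387116 to 171411810, plus strand) stood at 969, 962 and 975 CPM in control cells. It stood at 1410, 1495 and 1259.5 CPM in induced cells, all far above the controls, a 1.43-fold difference (log2 fold change 0.52, SE 0.08, edgeR adjusted p = 0.0171). The call did not hold without any 1 of the controls or induced replicate 1 (edgeR adjusted p from 0.0686 to 0.121), or with library size only (0.0502 in edgeR). NPM1 has 49 named pseudogenes, whose counts together averaged 3035 per library against 85321 to 139310 for NPM1 itself, and pairs shared among such copies are uncertain.

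NCL (nucleolin, which binds the precursor RNA) was at 1223, 1270 and 1245 CPM in control and at 1521, 1594 and 1330 CPM in induced cells. The groups did not overlap, with induced replicate 3 nearest to the controls, and the log2 fold change of 0.25 (SE 0.08) did not pass (edgeR adjusted p = 0.151), whereas it did without that library (adjusted p = 0.0141 in edgeR). NOLC1, a chaperone that links nucleoli and Cajal bodies, had 359 to 383 CPM in control and 389 to 443 CPM in induced cells (log2 fold change 0.17). GNL3 (nucleostemin, a nucleolar GTPase) had 77.3 to 80.9 CPM in control cells, and 86.9 and 91.7 CPM in induced replicates 1 and 2 but 71.4 in replicate 3, and its log2 fold change of 0.07 was 0.18 without replicate 3. MYBBP1A, a nucleolar protein that binds MYB, was at 49.0 CPM in control replicate 1 against 72.5 and 83.0 in the other controls, and at 72.4, 85.5 and 86.2 CPM in induced cells. Its fold change of 0.26 on the log2 scale was 0.06 without control replicate 1.

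The 5 members that modify ribosomal RNA showed no shared direction, with 2 above 0 and a median log2 fold change of -0.02. NOP58 and NOP56, core proteins of the box C/D particles that guide methylation, had log2 fold changes of 0.16 and 0.11. NOP58 stood at 133, 130 and 136 CPM in control and at 148, 157 and 140 CPM in induced cells, without overlap (edgeR adjusted p = 0.253). NOP56 stood at 204, 197 and 197 CPM in control and at 228, 227 and 189 CPM in induced cells, so induced replicate 3 lay below the controls and the other induced libraries above them (edgeR adjusted p = 0.565). Without that library its log2 fold change was 0.20 (edgeR adjusted p = 0.0399). FBL (fibrillarin, the methyltransferase of the same particles) had 45.4, 45.3 and 67.5 CPM in control against 40.8, 55.9 and 42.5 CPM in induced cells. Its log2 fold change of -0.18 (SE 0.18, edgeR adjusted p = 0.652) was the lowest of the 44 and became 0.03 when control replicate 3 was left out.

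NAT10, the acetyltransferase of the small subunit RNA, had 126 to 136 CPM in control and 119 to 135 CPM in induced cells (log2 fold change -0.02, SE 0.07, edgeR adjusted p = 0.913). NOP2, a methyltransferase of the large subunit RNA, had 48.1 to 54.5 CPM in control and 46.5 to 51.0 CPM in induced cells (log2 fold change -0.06, SE 0.08, edgeR adjusted p = 0.730). The ranges overlapped in both. NOP2 shares 54.4% of its exon bases with a second annotated gene on the same strand, so its pairs were divided between them.

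Of the 16 members that build the small subunit, 14 had fold changes above 0, 10 had induced libraries above all controls, and 1 passed the test. The shares over all genes were 49.9%, 11.5% and 1.02% in that order, and among abundant protein-coding genes 63.2%, 20.5% and 1.69%. RRP9, which holds the U3 small nucleolar RNA in the processome, changed most of all 44 genes (ENSG00000114767.7, chromosome 3, 51933429 to 51941904, minus strand). It was at 9.07, 10.4 and 11.4 CPM in control and at 16.6, 18.1 and 18.4 CPM in induced cells. The groups lay well apart, at a 1.72-fold difference (log2 fold change 0.78, SE 0.11, edgeR adjusted p = 0.0131). Without control replicate 2 or induced replicate 1 the edgeR adjusted p was 0.0976 and 0.0514. Its level was low among the members, at 10.9 ± 0.696 TPM (SD, n = 3) in control and 18.9 ± 2.39 TPM (SD, n = 3) in induced cells.

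RRP12, an export factor for both subunits, had 67.8, 85.0 and 90.2 CPM in control against 103, 104 and 134 CPM in induced cells. NOB1, the endonuclease that makes the final cut at the end of the small subunit RNA, had 34.6, 39.9 and 41.5 CPM in control against 50.1, 46.8 and 56.5 CPM in induced cells. In both, all induced libraries lay above all controls with replicate 3 highest, and the log2 fold changes of 0.49 (SE 0.14, edgeR adjusted p = 0.104) and 0.40 (SE 0.10, edgeR adjusted p = 0.0779) did not pass. NOP14, a core processome protein, had 57.8 to 64.5 CPM in control and 73.4 to 76.6 CPM in induced cells (log2 fold change 0.27, edgeR adjusted p = 0.0833). NOB1 and NOP14 share 20.4% and 20.7% of their exon bases with antisense genes.

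PNO1, the partner of NOB1 in the late small subunit precursor, had 33.4 to 34.8 CPM in control and 37.8 to 45.5 CPM in induced cells. For IMP4, which belongs to the U3 particle, control libraries ran from 49.4 to 58.5 CPM and induced libraries from 62.9 to 66.5 CPM. WDR43 (UTP5), a member of the processome's first module, had 157 to 163 CPM in control and 172 to 199 CPM in induced cells. All 3 were without overlap and had log2 fold changes of 0.26, 0.24 and 0.22 with edgeR adjusted p of 0.150, 0.158 and 0.154.

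The other processome members moved less. UTP15 and UTP4, of the same module as WDR43, had log2 fold changes of 0.15 and 0.09 and were without overlap, as was TSR1, a late GTPase-like factor, at 0.12. For TSR1 the groups nearly touched, at 77.36 CPM in induced replicate 3 against 77.32 CPM in control replicate 2. UTP20, a large scaffold, had 0.14, BYSL (bystin) 0.11 and RCL1 0.10, each with overlapping groups. BYSL was at 0.03 without control replicate 1 and 0.04 without induced replicate 2, and UTP20 at 0.22 without induced replicate 3. WDR75, again of the first module, had 0.03. HEATR1 (UTP10), also needed for RNA polymerase I transcription, had 405 to 444 CPM in control and 416 to 427 CPM in induced cells (log2 fold change -0.01, SE 0.06, edgeR adjusted p = 0.969). IMP3, a further protein of the U3 particle, had a mean of 16.4 ± 0.356 CPM in control against 15.4 ± 1.23 CPM in induced libraries (SD, n = 3), with overlap (log2 fold change -0.09, SE 0.09, edgeR adjusted p = 0.665), and 59.0% of its exon bases lie under genes on the opposite strand. RRP9 and IMP3, both proteins of the U3 particle, thus stood at the highest and the second lowest fold change of the 44.

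All 12 members that build the large subunit had fold changes above 0, with a median of 0.23, and 1 passed the test. Over all genes 49.9% were above 0 and 1.02% were called higher, and among abundant protein-coding genes 63.2% and 1.69%. EBNA1BP2 (EBP2, an assembly factor of the early large subunit; ENSG00000117395.13, chromosome 1, 43164175 to 43270936, minus strand) was at 118, 122 and 120 CPM in control and at 149, 158 and 145 CPM in induced cells. The control libraries lay within a narrow range and the induced libraries all above it, at a 1.25-fold difference (log2 fold change 0.32, SE 0.06, edgeR adjusted p = 0.0372). The call did not hold with library size only or upper quartile scaling (edgeR adjusted p = 0.119 and 0.0855), or when any 1 library other than induced replicate 3 was left out (edgeR adjusted p from 0.0762 to 0.199). RRS1, which helps to place the 5S particle, was at 24.2, 29.0 and 31.6 CPM in control and at 35.9, 41.5 and 41.2 CPM in induced cells. Its groups did not overlap either, and the log2 fold change of 0.48 (SE 0.11) was larger than that of EBNA1BP2 with a wider error (edgeR adjusted p = 0.0653).

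The PeBoW complex, which joins PES1, BOP1 and WDR12, is needed for processing of the large subunit RNAs. PES1 had 115, 127 and 122 CPM in control against 144, 134 and 152 CPM in induced cells. WDR12 had 103, 99.0 and 98.5 CPM in control against 118, 118 and 112 CPM in induced cells. Both were without overlap, at log2 fold changes of 0.24 and 0.21 with edgeR adjusted p of 0.122 and 0.114. BOP1 was at 21.7 CPM in control replicate 1 and at 34.9 and 39.5 CPM in the other controls, against 33.8, 36.6 and 39.6 CPM in induced cells. Its log2 fold change of 0.20 (SE 0.20) became -0.03 without control replicate 1, so the direction for BOP1 rested on that library.

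Among the remaining large subunit factors, NOP16 had 49.9 to 57.7 CPM in control and 58.9 to 72.4 CPM in induced cells (log2 fold change 0.30), and PPAN (peter pan) had 22.1 to 29.5 and 29.7 to 34.1 CPM (0.27). Both were without overlap by a small margin, and PPAN was at 0.16 without control replicate 1. PPAN shares 49.2% of its exon bases, mostly with its readthrough transcript into P2RY11. RRP1 and RRP1B, which are paralogs, had log2 fold changes of 0.30 and 0.18 with overlapping groups. RRP1B had 124 to 135 CPM in control cells, and 149 and 169 CPM in induced replicates 1 and 2 but 123 in replicate 3, without which its log2 fold change was 0.30, against 0.07 without replicate 2. RRP1 was at 0.14 without induced replicate 2. MRTO4, a factor related to the stalk protein P0, had 0.14, NIP7 0.10 and GRWD1, a WD-repeat chaperone, 0.02 on the log2 scale, all with overlapping groups, and MRTO4 was at 0.23 without induced replicate 3.

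Across the 6 members of the RNA polymerase I machinery, 0 passed the test and 0 had an unadjusted p under 0.05 in either direction by edgeR, and DESeq2 also called 0. Without induced replicate 3, edgeR called TAF1D higher, beside 3.68% of all genes. The median log2 fold change was 0.09, and 0.16 without induced replicate 1. POLR1A, the largest subunit of the enzyme, had 219, 230 and 224 CPM in control against 242, 240 and 255 CPM in induced cells. It was the single gene of the 6 without overlap between groups (log2 fold change 0.13, SE 0.06, edgeR adjusted p = 0.295). Of all genes, 11.5% had induced libraries above all controls. POLR1B, the second largest subunit, had 160, 151 and 149 CPM in control against 158, 157 and 145 CPM in induced cells. POLR1C, a subunit shared with RNA polymerase III, had 49.6, 47.2 and 43.0 CPM in control against 48.4, 42.5 and 48.8 CPM in induced cells. The log2 fold changes of POLR1B and POLR1C lay within 0.01 of 0, with SE of 0.07 and 0.09 and edgeR adjusted p of 0.999 and 0.997.

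UBTF, the factor that bends and opens ribosomal DNA, had 163, 178 and 178 CPM in control against 202, 209 and 177 CPM in induced cells. The first 2 induced libraries lay above the controls and the third within them (log2 fold change 0.18, SE 0.08, edgeR adjusted p = 0.289). TAF1D, a subunit of the selectivity factor SL1, had 79.2, 77.1 and 80.4 CPM in control against 89.9, 102 and 76.1 CPM in induced cells, again with replicate 3 lowest (log2 fold change 0.18, SE 0.10, edgeR adjusted p = 0.419). TAF1D was at 0.29 without that library (edgeR adjusted p = 0.0432) and at 0.07 without induced replicate 2. RRN3 (TIF-IA), which makes the polymerase competent to start, had 29.9, 29.8 and 28.3 CPM in control cells. Its induced libraries were spread from 20.002 in replicate 1 to 33.9 and 36.8 CPM in replicates 2 and 3, on both sides of the controls (log2 fold change 0.04, SE 0.20, edgeR adjusted p = 0.937). Without induced replicate 1 it was 0.28, and without induced replicate 3 it was -0.11.

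**Figure D3:**
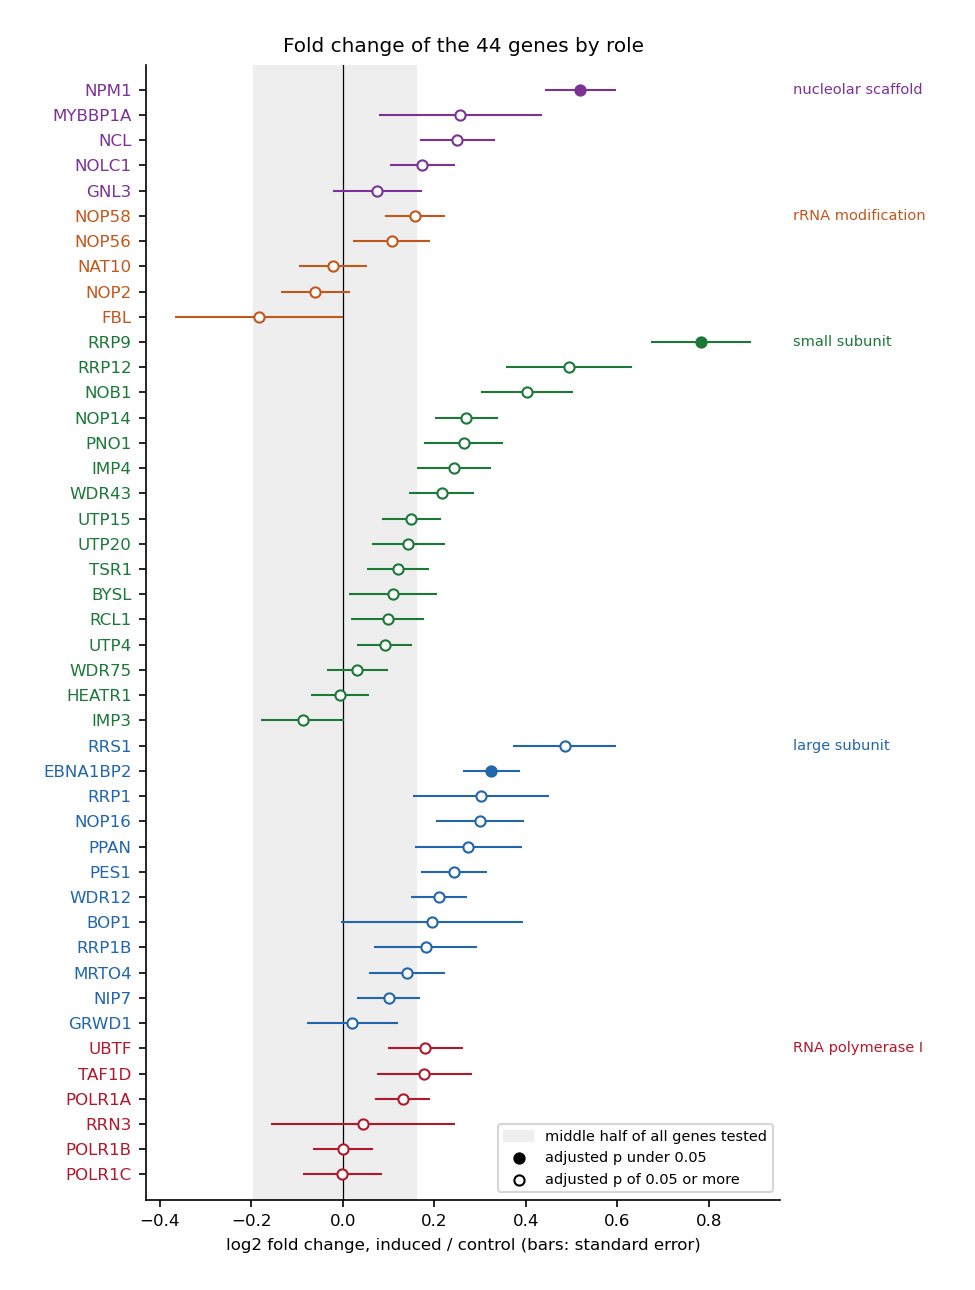
Log2 fold change of induced over control (points) with its standard error (bars) for the 44 genes, grouped and coloured by role; filled points passed the edgeR test, and the grey band spans the lower to the upper quartile of all genes tested. The 3 filled points are NPM1, RRP9 and EBNA1BP2, and the rRNA modification and RNA polymerase I genes have the lowest medians, -0.02 and 0.09.

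Levels differed far more between members than between groups. In control cells NCL, NPM1 and NOLC1 were the most abundant per length, at 229 ± 9.76, 191 ± 9.34 and 153 ± 12.7 TPM (SD, n = 3). HEATR1 followed at 76.6 ± 7.54 TPM, then NOP58 at 66.7 ± 3.04 and NOP56 at 66.1 ± 4.55 TPM, which did not differ beyond their spread. At the low end were RRP9 at 10.9 ± 0.696, IMP3 at 10.5 ± 0.315 and RCL1 at 7.43 ± 0.0940 TPM. In induced cells NPM1 reached 277 ± 57.8 TPM and NCL 275 ± 58.8 TPM, so there they did not differ beyond their spread.

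The same direction was seen in a list of 99 further genes of the pathway. Of these, 88 had fold changes above 0, 5 were called higher and 0 lower, 31 had an unadjusted p under 0.05 in the higher direction, and the median log2 fold change was 0.15. Over all genes 1.02% were called higher, 49.9% were above 0 and 8.13% had such an unadjusted p, and among abundant protein-coding genes 1.69%, 63.2% and 14.3%. By edgeR 0 of the 99 were called when any 1 library other than induced replicate 3 was left out, where 18 to 169 of all genes were called higher. Without induced replicate 3, 22 of the 99 were called higher, beside 3.68% of all genes. The genes that rose were AATF, a small subunit factor, at 0.47 on the log2 scale (SE 0.08, edgeR adjusted p = 0.0291), the helicase DDX10 at 0.44 (SE 0.08, adjusted p = 0.0363, edgeR) and 3 large subunit factors. LSG1, the GTPase that releases the export adaptor, rose by 0.33 (SE 0.06, edgeR adjusted p = 0.0265), NSA2 by 0.33 (SE 0.07, edgeR adjusted p = 0.0450) and RSL1D1 by 0.30 (SE 0.06, edgeR adjusted p = 0.0359). The largest fold changes, ZNF622 at 0.49 and DDX49 at 0.48, did not pass. At the lower end were SURF6 at -0.21 and the polymerase subunit POLR1H at -0.15. By role, the median was 0.20 over 43 large subunit factors, 0.14 over 40 small subunit factors and 0.10 over 16 genes of the RNA polymerase I machinery. These 16 include POLR2E, POLR2F, POLR2H, POLR2K and POLR2L, subunits shared with other RNA polymerases. Of these 16, edgeR called 0 and DESeq2 called 1 higher (3.11% of all genes in DESeq2). Without induced replicate 3, edgeR called 3 of them higher (3.68% of all genes).

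Cytosolic ribosomal proteins, the material these factors assemble, had a median log2 fold change of 0.10. It was 0.13 without induced replicate 2, where the medians of the 44 genes and of the 99 were both 0.12, so the order of the lists rested on that library. Of 79 genes, 65 had fold changes above 0, against 49.9% of all genes and 63.2% of abundant protein-coding genes. In either direction edgeR called 0, and DESeq2 also called 0. At an unadjusted p under 0.05 there were 6 higher and 2 lower, against 8.13% and 10.6% of all genes and 14.3% higher among abundant protein-coding genes. RPL18 had the largest log2 fold change, 0.41, and RPS9 (-2.19) and RPL41 (-0.23) had the smallest, and none of these passed. Their order over the induced libraries was not that of the assembly factors. The median ribosomal protein gene stood at 0.08, 0.01 and 0.18 above the control mean in induced replicates 1, 2 and 3, highest in replicate 3, whereas the 44 genes were highest in replicate 2 and lowest in replicate 3. The difference between the lists was not tested.

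**Figure D4:**
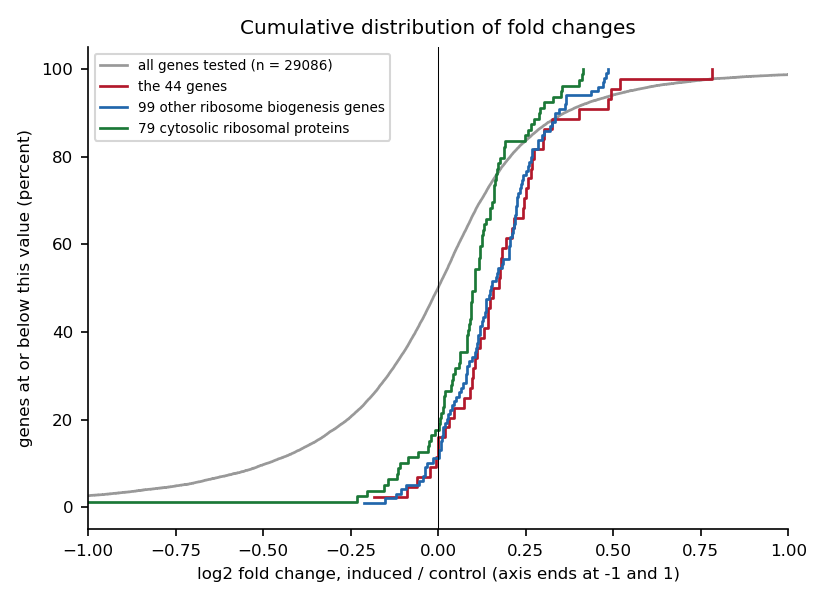
Percent of genes at or below each log2 fold change (axis cut at -1 and 1) for all 29086 genes tested, the 44 genes, 99 other ribosome biogenesis genes and 79 cytosolic ribosomal proteins. The curves of both assembly factor lists lie right of that of all genes through the middle of the range, with medians of 0.17 and 0.15, and that of the ribosomal proteins lies between, at 0.10.

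The GC content of a member moved with its level in control replicate 1. Exon GC ran from 36.4% to 65.2% over the members, with a median of 50.3% against 47.1% over all genes tested. Across the 44 members, which share the same 3 libraries, Spearman's rho between exon GC and the log2 ratio of control replicate 1 to the other controls was -0.73. It was 0.21 between exon GC and the log2 fold change. Control replicate 1 was the lowest control for 22 members. With a correction for GC content, chosen after the data were seen, 8 members were called higher (2.05% of all genes, with 3.09% lower), the same 3 with NOP14, PES1, RRP12, NOB1 and RRS1, and the median log2 fold change was 0.18. Without control replicate 1, 1 member (RRP9) was called (0.162% of all genes called higher) and the median was 0.14. The medians of the 22 members with exon GC above and the 22 below the members' median were 0.19 and 0.15.

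**Figure D5:**
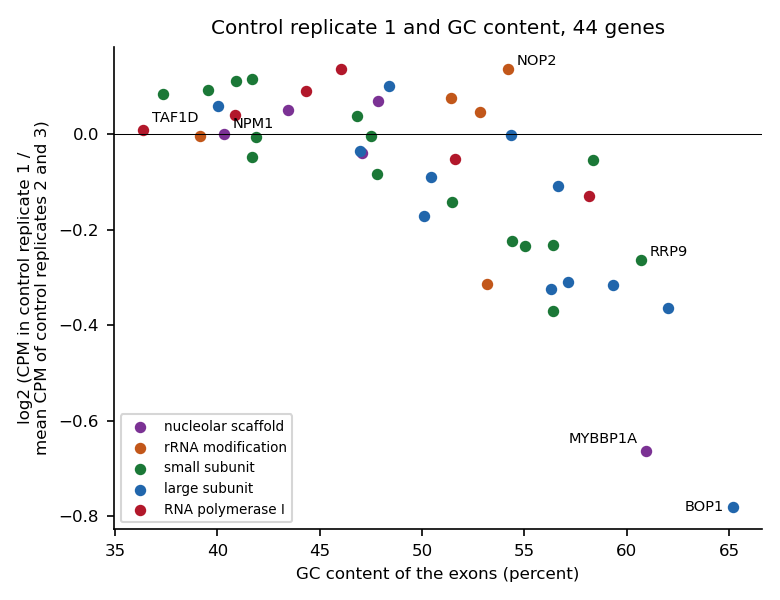
Log2 ratio of CPM in control replicate 1 to the mean of control replicates 2 and 3 against exon GC content in percent, with 1 point for each of the 44 genes, coloured by role. The points fall from near 0 at low GC to MYBBP1A and BOP1 at the GC-rich end, while NPM1 lies near 0 and RRP9 below it.

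Counting added its own limits for some members. Exon bases were shared with another annotated gene in 27 members and exceeded 20% in 7 (IMP3, NOP2, PPAN, TSR1, HEATR1, NOP14 and NOB1), whose median log2 fold change was 0.12. The 3 members that rose shared 0% of their exon bases (RRP9 and NPM1) or 15.4% (EBNA1BP2). Between their ends 9 members hold 34 small nucleolar RNA genes, with 8 in TAF1D, 6 in GNL3, 5 in NOP56 and 4 in NOP58, and a pair over both was divided. RRN3 has 4 named pseudogenes, whose counts together averaged 150 per library.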

How the data were processed

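Total RNA depleted of ribosomal RNA from 3 control and 3 induced SK-N-AS cultures was sequenced by the authors in pairs. The authors deposited estimated counts, read pairs per gene over exons; the file headers name unique STAR alignments and featureCounts 1.6.4 with pairs over several genes divided in fractions and no strand option. The submitters' processing notes name STAR 2.7.1a, featureCounts 1.5.1 and GRCh38, and the methods a strand option, so antisense overlaps are uncertain. Between 31.9% and 33.4% of values above 0 were not whole. Of 60651 identifiers, 99.65% matched GENCODE release 44, used for names, and 92 spike-in sequences had 0 counts.

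Estimated counts were rounded, the 29086 genes that reached 10 counts in 3 or more libraries were kept, and edgeR 4.0.16 in R 4.3.3 was run with TMM normalization and the quasi-likelihood test on condition, with Benjamini-Hochberg adjustment over all genes tested and a threshold of 0.05. Each SE was taken as the log2 fold change over the square root of its F statistic. TPM were computed from exon lengths. The fit was tested on simulated data. A count of 10 carries large counting error, and for the members the error is set mostly by the spread between libraries. The common biological coefficient of variation over all genes tested was 0.153, which is not a value for the members.

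Groups and replicate numbers came from the sample titles, and the paper states independent replicates. Deviations of libraries with the same number correlated at 0.22, -0.02 and 0.07, and those of libraries with different numbers at -0.19 to 0.08. With so few libraries these values cannot decide whether the numbers mark pairs, and no pairing was used in the main fit. Named in full are MYCN, MYC, members past the threshold, the 5 largest and 5 smallest fold changes, the RNA polymerase I members and NCL, NPM1, FBL, NOP56 and NOP58; from the other lists, genes past the threshold and the 2 largest and smallest, of which 1 is not reported here. Other members are given by ranges, chosen after their values were seen. The members, lists and alternatives were chosen with earlier results of these data known; the lists of other genes were written from general knowledge. Alternatives were library size only, upper quartile, DESeq2 1.42.0, no count filter, 100 counts in every library, fractions kept, a replicate block, leaving out each library, an adjusted p threshold of 0.1 and a GC correction (lowess span 0.3) added later.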

Additional observations from a re-analysis of the deposited data

How the results depend on the processing

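The median log2 fold change of the 44 genes stayed above 0 under each alternative, from 0.12 without induced replicate 2 to 0.21 without induced replicate 3, but the number called higher did not stay near 3. It was 1 with library size only, 8 with DESeq2, 8 with the GC correction, 6 at an adjusted p under 0.1 and 0 to 12 when 1 library was left out. For the 99 other ribosome biogenesis genes, 5 called higher became 1 with library size only or upper quartile, 14 with DESeq2, 10 with the GC correction, 12 at an adjusted p under 0.1 and 0 to 22 when 1 library was left out. Ribosomal proteins called lower ran from 0 to 1 when 1 library was left out, with RPS9 called without control replicate 3. Over all genes, 298 higher became 239 with library size only, 267 with upper quartile, 904 with DESeq2 and 470 without the count filter. The number was 596 with the GC correction, 706 at an adjusted p under 0.1 and 18 to 1060 when 1 library was left out. The 692 lower became 1199 with DESeq2, 404 with 100 counts in every library, 1242 at an adjusted p under 0.1 and 72 to 1279 when 1 library was left out. Leaving out a library leaves 2 in its group, so fewer samples enter the fit.

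RRP9 had an edgeR adjusted p of 0.0141 to 0.0976 when 1 library was left out, with the highest value without control replicate 2. NPM1 had 0.00251 to 0.121 and EBNA1BP2 0.0114 to 0.199 in edgeR, also highest without that library. The replicate block assumes a pairing by number that is not established. With it, 4 members were called higher (NPM1, RRP9, RRP12 and RRS1) beside 265 of all genes, and the median was 0.16. EBNA1BP2 was not called (edgeR adjusted p = 0.0705). MYC was called lower without induced replicate 3 (log2 fold change -0.48, edgeR adjusted p = 0.0160).

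Of the 44 genes, 35 kept their direction under every alternative and 9 had a change of sign, at small values. On the log2 scale, leaving out 1 library gave FBL -0.34 to 0.032 (above 0 without control replicate 3), BOP1 -0.027 to 0.37 (below 0 without control replicate 1) and GNL3 -6.83e-05 to 0.18 (below 0 without induced replicate 2). NAT10 ran from -0.054 to 0.045 and was 0.024 with the GC correction. RRN3 ran from -0.11 to 0.28 and was -0.0016 with the replicate block. HEATR1 ran from -0.039 to 0.026 and was 0.0096 with DESeq2, 0.0076 without the filter and 0.0025 with the GC correction. POLR1B ran from -0.022 to 0.046 and was 0.016 with DESeq2, 0.014 without the filter and 0.023 with the GC correction. POLR1C ran from -0.059 to 0.061 and was 0.015 with DESeq2, 0.013 without the filter and 0.030 with the GC correction. GRWD1 ran from -0.082 to 0.094 and was -0.0096 when scaled by library size alone and -0.0060 by upper quartile. The causes were not tested.

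With 3 libraries a group, each p-value sets the difference between groups against an estimate of the spread between these libraries. In edgeR that estimate drew on all genes tested and was shared by both groups. Fewer cells of a type and less RNA per cell cannot be told apart in bulk RNA.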

Other observations

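Some cytosolic ribosomal protein genes differed between libraries in a way that did not follow the groups. RPS18 was at 3.04, 2.58 and 436 CPM in control replicates 1, 2 and 3 and at 437, 1.79 and 146 CPM in the induced replicates, so single libraries of both groups lay at either level. RPS9 was at 27.2, 43.0 and 4.01 CPM in control cells and at 5.87, 6.22 and 4.14 CPM in induced cells. RPL7A was at 559, 365 and 265 CPM in control cells and at 278, 517 and 272 CPM in induced cells. These genes were chosen after their values were seen.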
